A study of Mus musculus with 6 samples.

Results

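Lysosomes are the acidic compartments in which cells break down proteins, glycans and lipids, and an enlarged lysosomal compartment is one of the textbook signs of a senescent cell. Their soluble hydrolases are tagged in the Golgi and delivered by sorting receptors, a proton pump acidifies the lumen, and heavily glycosylated membrane proteins line the limiting membrane. In liver, hepatocytes carry a large lysosomal compartment, and the resident macrophages, the Kupffer cells, carry one richer in some cathepsins. The staining known as senescence-associated β-galactosidase is the activity of a lysosomal enzyme encoded by Glb1, measured away from its best pH.

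The genes described here are 43 lysosomal genes, of 32061 genes in the count table, chosen by symbol: 11 proteases, 14 glycosidases and sulfatases, 7 genes of lipid breakdown and export, 6 membrane proteins, 4 genes of the proton pump and the transcription factor gene Tfeb. All 43 had enough counts to be tested. RNA came from hepatocytes that were perfused out of the liver with collagenase and passed over a density gradient, from mice 10 to 12 weeks old. The 3 senescent libraries came from AhCre+Mdm2fl/fl mice, which carry a Cre recombinase under a promoter that ligands of the aryl hydrocarbon receptor switch on and a floxed Mdm2 gene, whose product holds the transcription factor p53 down. The 3 healthy libraries came from AhCre- mice, for which the labels state no Mdm2 genotype. Mice of both groups received the inducer β-naphthoflavone in corn oil at 20 mg/kg, with 48 h given as the time, so inducer and vehicle are shared and carrying Cre cannot be told apart from what Cre does to Mdm2. Whether each library came from its own mouse is not stated, and p-values therefore reflect only variation among these libraries.

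Total counts were 29992707 to 32210591 in senescent and 28799392 to 33267299 in healthy libraries. Levels are CPM, counts scaled to a common library size after TMM scaling, in the order of replicates 1, 2 and 3. Changes are log2 fold changes, senescent minus healthy, ± SE, and a gene is called at an adjusted p under 0.05 in edgeR's quasi-likelihood test. Mdm2 had 465, 463 and 501 CPM in senescent and 19.03, 22.7 and 21.99 CPM in healthy libraries, and Cdkn1a, the gene of the cell cycle inhibitor p21, averaged 717 ± 60.0 CPM in senescent and 35.6 ± 17.0 CPM in healthy libraries (SD, n = 3 each). The Mdm2 level was thus 22.4-fold higher, not lower, in the libraries labelled with the floxed gene. These counts are summed over the whole gene, so they do not check the deletion of its floxed part, and groups are taken as labelled. Of 10 hepatocyte markers 6 fell (60.0%, against 20.7% of all genes tested) and 0 rose. Alb, among those that fell, had 51520 ± 3860 CPM in senescent and 90320 ± 9846 CPM in healthy libraries. The sum of the 10, of which Alb is the largest part, averaged 78620 CPM in senescent and 131600 CPM in healthy libraries. Cps1 (0.14), Hnf4a (0.02), Pck1 (0.07) and Fgb (-0.38) were not called, and their groups overlapped. All 22 macrophage markers had a positive change (median 1.06), and 6 rose (27.3%, against 20.4% of all genes tested) and 0 fell. DESeq2 called 13 of them, and edgeR called 2 to 14 with single libraries left out. Their summed level was 284 to 566 CPM in senescent and 113 to 297 CPM in healthy libraries. Of 11 tested stellate cell and fibroblast markers 7 rose (63.6%, against 20.4% of all genes tested). Summed over 12, they had 42.1 to 60.4 CPM in senescent and 15.5 to 27.1 CPM in healthy libraries. Among them Acta2, not tested, had 2, 1 and 0 counts in senescent and 0 in every healthy library. Endothelial markers gave 2 rises of 10 (20.0%), near the share of all genes. The bile duct markers Krt19 and Muc1, of 5 tested (40.0%, against 20.4% of all genes tested), rose. They rest on 4, 0 and 2 counts (Krt19) and 2, 3 and 5 counts (Muc1) in healthy libraries. Krt7 (1.31), Prom1 (0.70) and Sox9 (-0.20) were not called, and their groups overlapped. The neutrophil genes S100a8 and S100a9, the only pair tested of 10 lymphocyte and neutrophil genes, rose as well. Krt19 averaged 0.746 ± 0.0623 CPM in senescent and 0.0685 ± 0.0674 CPM in healthy libraries, and S100a9 averaged 1.17 ± 0.107 CPM in senescent and 0.207 ± 0.166 CPM in healthy libraries (SD, n = 3 each). What part these cells have in the results on lysosomal genes was not tested. In such bulk libraries fewer cells of a type and less RNA per cell cannot be told apart.

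The transcription factor TFEB is known to bind the CLEAR element, a palindromic site found near the start of many lysosomal genes. In RefSeq's promoter windows on GRCm38.p6 (250 bases before to 50 after a start), 37 of the 43 genes had at least 1 window. The site's core, TCACGTGA, was found in 6 of these 37 genes (16.2%), and in 1.12% of all 27025 genes with a window. The shorter E-box core CACGTG, which TCACGTGA contains, was found in 15 of the 37 (40.5%) and in 8.09% of all genes. Both words are their own reverse complement, so a search covers both strands. The 6 genes with the longer word are shown because they split by outcome, with 30 bases around the first site on the gene's strand and the site in capitals. Ctsd (chr7:142387908-142387937, minus strand) and Atp6v1a (chr16:44139373-44139402, minus) rose, Ctsa (chr2:164833749-164833778, plus) fell, and Gla (chrX:134601215-134601244, minus), Mcoln1 (chr8:3500462-3500491, plus) and Atp6v0d1 (chr8:105566050-105566079, minus) were not called. Glb1 (chr9:114401018-114401047, plus) holds only the shorter word and is added because its enzyme gives the senescence stain.
Ctsd: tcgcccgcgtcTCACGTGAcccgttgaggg
Atp6v1a: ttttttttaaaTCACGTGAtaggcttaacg
Ctsa: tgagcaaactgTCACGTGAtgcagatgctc
Gla: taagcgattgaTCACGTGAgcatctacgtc
Mcoln1: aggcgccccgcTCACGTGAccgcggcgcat
Atp6v0d1: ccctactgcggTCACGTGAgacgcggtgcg
Glb1: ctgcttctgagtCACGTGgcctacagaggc
By outcome, TCACGTGA was found in 2 of 10 genes that rose, 1 of 11 that fell and 3 of 16 not called, counting those with a window. A match is only a run of letters, and no binding was measured. The windows of Tpp1, Ctsc and Cd63, which had the widest changes, hold neither word.

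Lysosomal genes moved in both directions. Of the 43 genes 10 rose, 14 fell and 19 were not called, so 55.8% were called, against 41.1% of all 12949 genes tested. By direction, 23.3% rose and 32.6% fell, against 20.4% and 20.7% of all genes. Their median log2 fold change was -0.19, against 0.01 for all genes, and single changes ran from -1.56 to 2.02. Levels of both groups did not overlap for 31 of the 43 (54.0% of all genes tested). Summed over all 43, the level was 5567, 5514 and 5475 CPM in senescent and 5994, 6548 and 5810 CPM in healthy libraries, lower in every senescent library. That order turns round when total library size replaces TMM, with 5874 to 6306 CPM in senescent and 5280 to 5843 CPM in healthy libraries. Changes of 2-fold or more were found for 4 genes that rose, Tpp1, Cd63, Ctsd and Cd68 (10.4% of all genes), and 2 that fell, Ctsc and Gaa (6.94%).

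**Figure D1:**
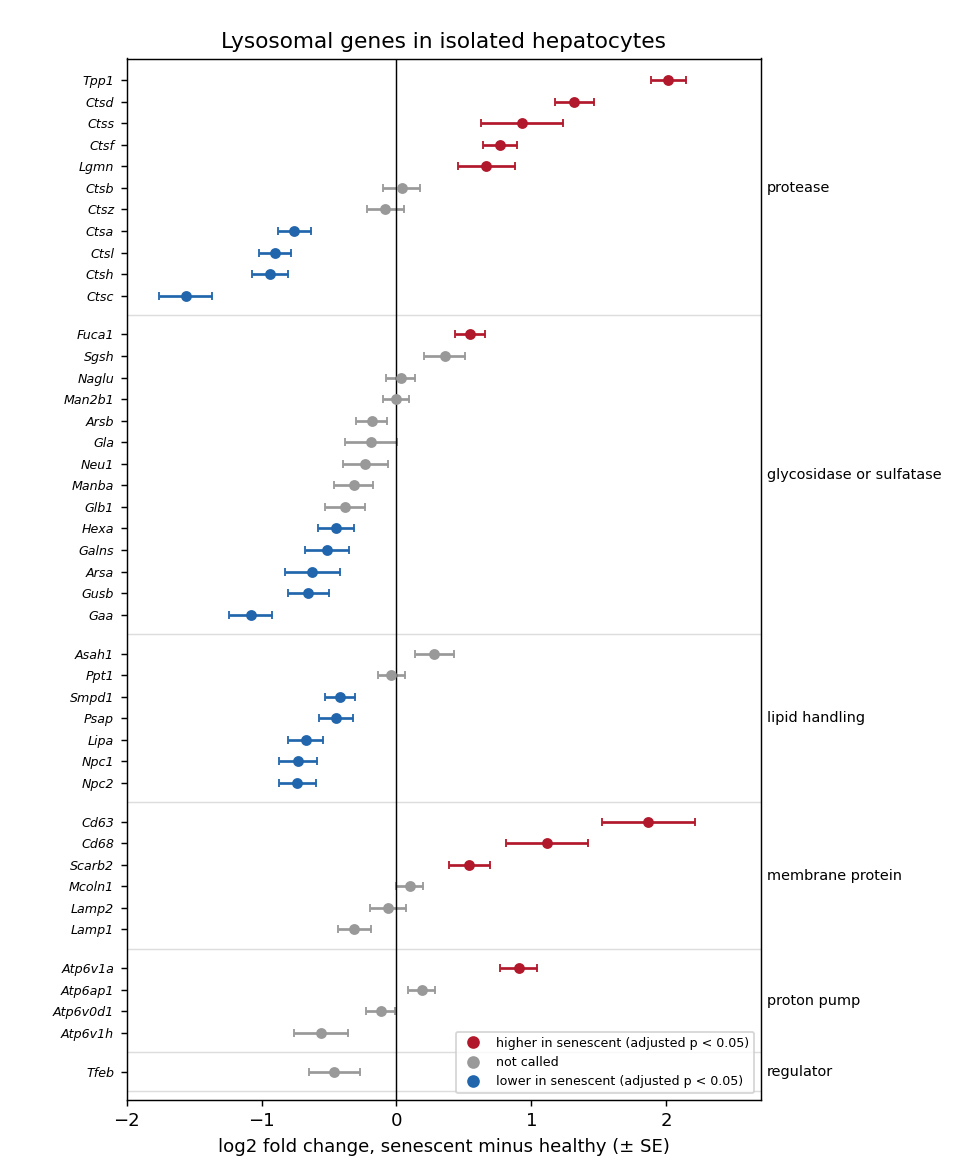
Log2 fold change, senescent minus healthy, of the 43 lysosomal genes by role, with bars of ± 1 SE from edgeR (n = 3 libraries per group). Genes called higher are red, lower blue and not called grey. Proteases spread from Ctsc at -1.56 to Tpp1 at 2.02, whereas the called lipid genes all lie left of 0.

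The balance between rises and falls depends on scaling. Scaling by total library size moved the median of all genes to 0.33 on the log2 scale, and of the 43 genes 16 then rose and 7 fell, their median being 0.13. Of the calls over all genes 79.1% were then rises, and 49.7% with TMM. Changes are given on the TMM scale unless another is named. Leaving out senescent replicate 3 left the 43 genes with 6 rises and 9 falls. Calls over all genes dropped too in that fit, to 1836 rises and 1489 falls from 2644 and 2680. There were 9 falls also without senescent replicate 2 or without healthy replicate 2, where all genes gave 1816 and 2096 falls. Of the 24 calls, 13 held in each of the 14 alternatives tried: the rises of Tpp1, Cd63, Ctsd, Ctsf, Atp6v1a and Fuca1 and the falls of Ctsc, Gaa, Ctsh, Ctsl, Ctsa, Npc1 and Npc2.

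The proteases split, with 5 rises and 4 falls among 11 (45.5% and 36.4%, against 20.4% and 20.7% of all genes tested). Tpp1 (ENSMUSG00000030894; GRCm38 chromosome 7, 105744811 to 105752235) encodes tripeptidyl peptidase 1, which takes tripeptides off the amino terminus of proteins. It had 220, 279 and 265 CPM in senescent and 58.3, 64.8 and 65.5 CPM in healthy libraries. That is a rise of 4.05-fold, 2.02 ± 0.13 on the log2 scale (edgeR adjusted p = 1.7e-05), and the widest change among the 43 genes. The lowest senescent library stood more than 3 times above the highest healthy one.

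Ctsd (ENSMUSG00000007891; chromosome 7, 142375911 to 142388038) encodes cathepsin D, the main aspartic protease of lysosomes. It had 524, 548 and 539 CPM in senescent and 198, 257 and 190 CPM in healthy libraries, a rise of 1.32 ± 0.15 (adjusted p = 0.00030). Per kilobase of exon the Ctsd level ranked highest of the 43 genes in senescent cells (228 CPM per kb) and 6th in healthy cells (91.5 CPM per kb). Length here is the union of all annotated exons of a gene, so such ranks depend on the annotation. By CPM alone, Ctsb (mean 776) and Lamp2 (561) stood above Ctsd (537) in senescent libraries. In GENCODE M21, 34.4% of the exonic bases of Ctsd also belong to Gm49369 on the same strand. Gm49369 is absent from the count table, and how reads from the shared bases were counted is not stated. Ctsf, the gene of the cysteine protease cathepsin F, rose by 0.77 ± 0.13 (adjusted p = 0.0020), with 51.4, 51.8 and 49.4 CPM in senescent and 33.6, 30.5 and 25.5 CPM in healthy libraries.

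The falls were among cysteine cathepsins and a carboxypeptidase. Ctsc (ENSMUSG00000030560; chromosome 7, 88278085 to 88310888), the gene of the dipeptidyl peptidase that activates the serine proteases of immune granules, had 88.5, 58.7 and 52.9 CPM in senescent and 207, 200 and 183 CPM in healthy libraries. Its log2 fold change was -1.56 ± 0.19 (adjusted p = 0.00052), the deepest fall of the 43. Ctsl, the gene of cathepsin L, an endopeptidase, had 404, 389 and 404 CPM in senescent and 774, 761 and 699 CPM in healthy libraries (-0.90 ± 0.12, adjusted p = 0.00073). Ctsh, the gene of the aminopeptidase cathepsin H, had 145, 136 and 125 CPM in senescent and 262, 293 and 223 CPM in healthy libraries (-0.94 ± 0.14, adjusted p = 0.0011). Neither gene's groups overlapped.

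Ctsa, whose product is a carboxypeptidase that also protects β-galactosidase and the sialidase NEU1 in a shared complex, had 96.8, 87.5 and 88.1 CPM in senescent and 140, 173 and 146 CPM in healthy libraries (-0.76 ± 0.12, adjusted p = 0.0018). Its 3′ neighbour Pltp lies on the opposite strand and overlaps 10.5% of its exonic bases. Ctsb, the gene of cathepsin B, an abundant cysteine protease, had 807, 764 and 757 CPM in senescent and 801, 810 and 658 CPM in healthy libraries. The groups of Ctsb overlapped, and its change was 0.04 ± 0.14 (95% interval -0.27 to 0.35, adjusted p = 0.84). Ctsz, the gene of the carboxypeptidase cathepsin Z, was not called either (-0.08 ± 0.14, adjusted p = 0.66).

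**Figure D2:**
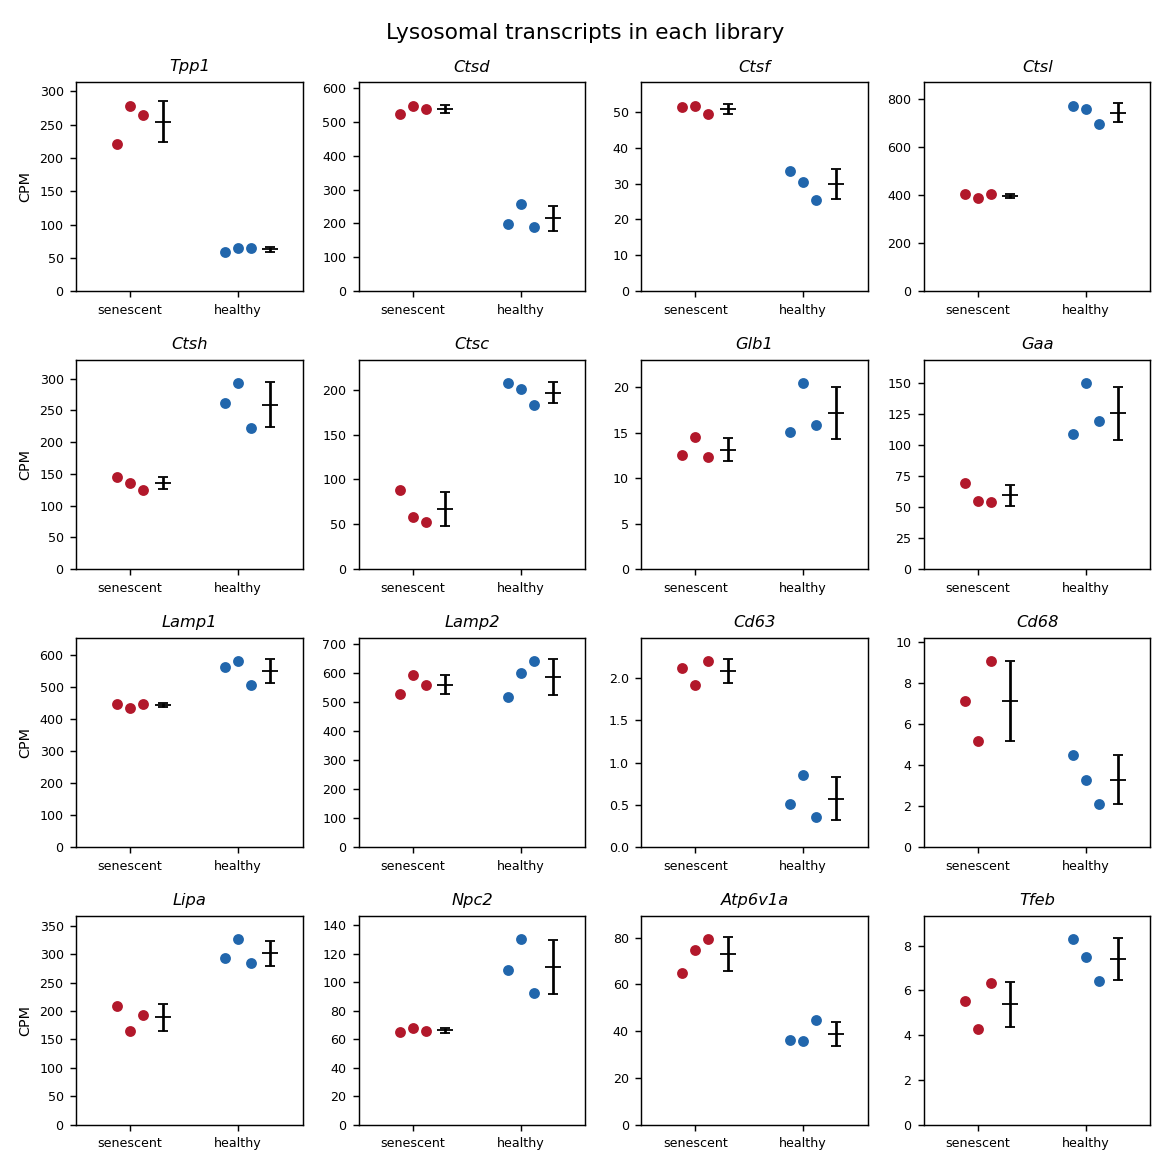
Levels in CPM of 16 lysosomal genes in each library, senescent (red, left) and healthy (blue, right), with mean ± SD beside them (n = 3 each). Tpp1, Ctsd and Atp6v1a stand higher in every senescent library, Ctsc, Ctsl, Gaa and Npc2 lower, and Lamp2 overlaps.

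Ctss and Lgmn rose beside the macrophage markers. Ctss encodes cathepsin S, a protease of antigen-presenting cells, and had 22.04, 15.1 and 26.5 CPM in senescent and 12.6, 14.3 and 6.40 CPM in healthy libraries (0.93 ± 0.30, adjusted p = 0.038). Lgmn encodes the asparagine-specific protease legumain, which matures cathepsins, and had 47.2, 37.3 and 56.4 CPM in senescent and 32.2, 34.9 and 21.6 CPM in healthy libraries (0.67 ± 0.21, adjusted p = 0.034). In both genes senescent replicate 3 was highest and healthy replicate 3 lowest of all 6 libraries, as in the summed macrophage markers, which had 437, 284 and 566 CPM in senescent and 253, 297 and 113 CPM in healthy libraries. Set against that sum, Ctss made up 5.04%, 5.31% and 4.68% in senescent and 4.997%, 4.80% and 5.69% in healthy libraries, and these shares overlap. The shares of Lgmn were 9.97% to 13.1% in senescent and 11.8% to 19.2% in healthy libraries. Every one of the 22 markers had counts in every library, other than Itgam, which was at 0 in healthy replicate 3, and their part in these rises was not tested.

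Ctss lost its call without senescent replicate 1 (edgeR adjusted p = 0.069) or 3 (0.12), and without healthy replicate 1 (0.054) or 3 (0.056). Lgmn lost its call without senescent replicate 1 (0.057) or 3 (0.10) or healthy replicate 3 (0.065). Over these fits the change of Ctss was 0.65 to 1.03 and that of Lgmn 0.48 to 0.69. Ctsc, which macrophages also express, moved the other way, and its level was 9.35% to 20.7% of the macrophage sum in senescent and 67.4% to 163% in healthy libraries.

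**Figure D3:**
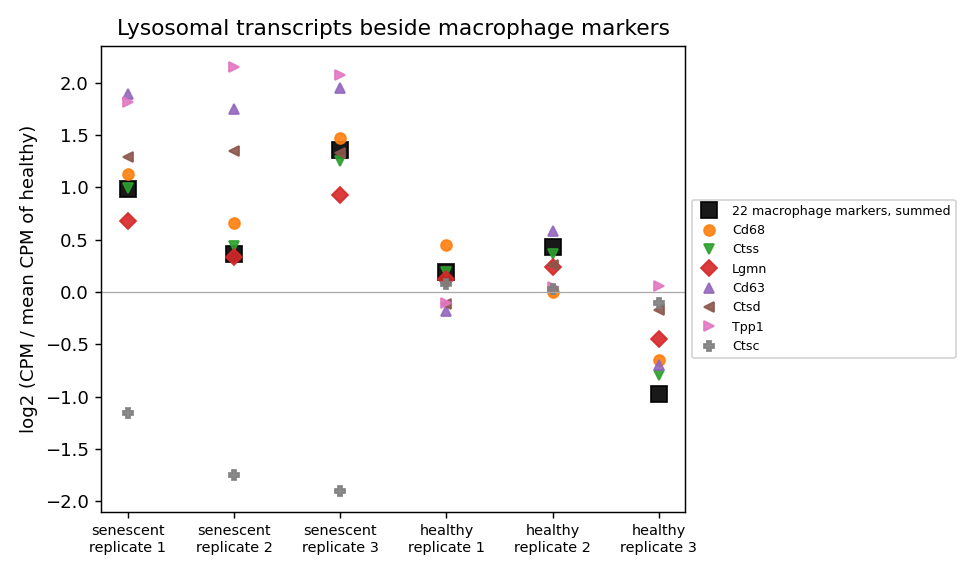
Level of 7 lysosomal genes and of 22 macrophage markers summed (black squares), as log2 of CPM over the healthy mean, in each of 3 senescent (left) and 3 healthy libraries. Cd68, Ctss and Lgmn lie near the black squares in most libraries, Tpp1 and Cd63 lie above them and Ctsc below them in every senescent library.

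Of the 14 glycosidases and sulfatases, which take sugars and sulfate groups off glycans and glycolipids, 5 fell, 1 rose and 8 were not called. Falls were 35.7% and rises 7.14%, against 20.7% and 20.4% of all genes tested. The median log2 fold change of the 14 was -0.27 (0.04 with total library size). Glb1 (ENSMUSG00000045594; chromosome 9, 114401076 to 114474898), the gene behind the senescence stain, had 12.5, 14.5 and 12.3 CPM in senescent and 15.1, 20.4 and 15.9 CPM in healthy libraries. Every senescent library was below every healthy one, by a change of -0.38 ± 0.15 that was not called (95% interval -0.72 to -0.04, adjusted p = 0.073). On the scale of total library size the change of Glb1 was -0.07 (adjusted p = 0.70). The fall was called without healthy replicate 1 (-0.47, adjusted p = 0.049). Per kilobase, Glb1 ranked 35th of the 43 genes in senescent and 32nd in healthy cells, at 4.37 and 5.69 CPM per kb. Neu1, the sialidase gene of the same complex, was not called (-0.23 ± 0.17, adjusted p = 0.29).

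Gaa (ENSMUSG00000025579; chromosome 11, 119267887 to 119285454), the acid α-glucosidase gene needed to break down glycogen in lysosomes, had 69.2, 55.0 and 54.3 CPM in senescent and 109, 150 and 119 CPM in healthy libraries. Its fall of -1.08 ± 0.16 (adjusted p = 0.0012) was the deepest of this class. Gusb, the β-glucuronidase gene, had 14.9, 15.9 and 17.8 CPM in senescent and 31.0, 22.1 and 23.4 CPM in healthy libraries (-0.65 ± 0.15, adjusted p = 0.010). Gusb was not called with total library size (-0.34, adjusted p = 0.11).

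Hexa encodes the α subunit of β-hexosaminidase, which degrades the ganglioside GM2, and had 35.5, 34.3 and 36.9 CPM in senescent and 40.9, 56.0 and 49.1 CPM in healthy libraries (-0.45 ± 0.13, adjusted p = 0.027). Gm2a, the gene of the activator protein that presents GM2 to this enzyme, fell too, averaging 63.7 ± 5.03 CPM in senescent and 129 ± 21.9 CPM in healthy libraries (SD, n = 3 each; adjusted p = 0.0011). Galns, a sulfatase gene of keratan sulfate breakdown, had 5.19, 4.52 and 4.63 CPM in senescent and 7.71, 6.65 and 6.12 CPM in healthy libraries (-0.51 ± 0.16, adjusted p = 0.033). Arsa, the arylsulfatase A gene, changed by -0.63 ± 0.20 (adjusted p = 0.038).

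The single rise of the class was Fuca1, the α-L-fucosidase gene, with 116, 118 and 113 CPM in senescent and 85.4, 80.8 and 71.6 CPM in healthy libraries (0.55 ± 0.11, adjusted p = 0.0051). The α-mannosidase gene Man2b1 had 112, 119 and 116 CPM in senescent and 117, 116 and 115 CPM in healthy libraries, a change of 0.00 ± 0.10 (95% interval -0.23 to 0.22, adjusted p = 0.99). Man2b1 was called higher with total library size (0.31, adjusted p = 0.034). The remaining 6, Sgsh, Naglu, Arsb, Gla, Neu1 and Manba, were not called, with changes of -0.32 to 0.36, though Sgsh (0.67, adjusted p = 0.0093) and Naglu (0.34, adjusted p = 0.029) were called higher with total library size. The weaker calls depend on which libraries enter, while the changes kept their sign. Hexa lost its call without senescent replicate 1 (edgeR adjusted p = 0.083), 2 (0.12) or 3 (0.096) or healthy replicate 2 (0.084), with changes of -0.44 to -0.34. Arsa lost its call without senescent replicate 1 (0.066), 2 (0.11) or 3 (0.15) or healthy replicate 2 (0.091), with changes of -0.66 to -0.36. Galns lost its call when any library other than healthy replicate 3 was left out (0.055 to 0.13), with changes of -0.55 to -0.42. None of Hexa, Arsa and Galns was called with total library size (adjusted p = 0.44, 0.22 and 0.34).

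Genes of lipid breakdown and export moved down: 5 of 7 fell (71.4%, against 20.7% of all genes tested) and 0 rose. Their median was -0.45, against -0.19 over all 43 genes (-0.14 and 0.13 with total library size). Lipa (chromosome 19, 34492318 to 34527474), the acid lipase gene that frees cholesterol from the esters of lipoproteins taken up, had 210, 164 and 193 CPM in senescent and 293, 326 and 284 CPM in healthy libraries (-0.67 ± 0.13, adjusted p = 0.0049). The pair that carries this cholesterol out fell with it. Npc2, the gene of the soluble carrier, had 65.0, 68.2 and 65.9 CPM in senescent and 109, 130 and 92.7 CPM in healthy libraries (-0.74 ± 0.14, adjusted p = 0.0038). Npc1, the gene of the membrane exporter, had 63.1, 64.9 and 57.7 CPM in senescent and 86.4, 121 and 100.7 CPM in healthy libraries (-0.73 ± 0.14, adjusted p = 0.0043). No senescent library reached the lowest healthy one in any of these 3 genes.

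Smpd1, the acid sphingomyelinase gene, had 42.3, 40.1 and 38.4 CPM in senescent and 51.7, 59.1 and 50.6 CPM in healthy libraries (-0.42 ± 0.11, adjusted p = 0.017). Psap encodes prosaposin, the precursor of the saposins that present sphingolipids to hydrolases, and averaged 476 ± 44.4 CPM in senescent and 650 ± 14.03 CPM in healthy libraries (SD, n = 3 each; -0.45 ± 0.13, adjusted p = 0.021). Per kilobase it was the most abundant of the 43 in healthy cells (173 CPM per kb in senescent and 237 CPM per kb in healthy cells). By CPM alone, Ctsb (mean 756) and Ctsl (745) stood above Psap in healthy libraries. The acid ceramidase gene Asah1 (0.28 ± 0.14, adjusted p = 0.15) and the palmitoyl-protein thioesterase gene Ppt1 (-0.04 ± 0.10, adjusted p = 0.79) were not called. Smpd1 lost its call without senescent replicate 2 (0.086) or 3 (0.10) or healthy replicate 2 (0.058), with changes of -0.37 to -0.35. Psap lost its call without the same libraries (0.12, 0.11 and 0.059), with changes of -0.44 to -0.37. Smpd1, Psap and Lipa were not called with total library size (adjusted p = 0.46, 0.39 and 0.065), and Asah1 was called higher without healthy replicate 2 (0.42, adjusted p = 0.048) or with total library size (0.59, adjusted p = 0.012).

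The 6 membrane proteins gave 3 rises (50.0%, against 20.4% of all genes tested) and 0 falls. Lamp1 and Lamp2 encode the major glycoproteins of the lysosomal membrane. Lamp1 had 449, 436 and 446 CPM in senescent and 563, 581 and 507 CPM in healthy libraries, lower in every senescent library, but the change of -0.31 ± 0.12 was not called (95% interval -0.58 to -0.04, adjusted p = 0.068). DESeq2 called it (-0.32, adjusted p = 0.028), as did edgeR without healthy replicate 3 (-0.37, adjusted p = 0.049), whereas with total library size the change of Lamp1 was 0.00 (adjusted p = 0.99). Lamp2 had 530, 592 and 560 CPM in senescent and 519, 599 and 641 CPM in healthy libraries, which overlap (-0.06 ± 0.13, adjusted p = 0.72). Scarb2, the gene of LIMP-2, the receptor that brings glucocerebrosidase to lysosomes, had 168, 215 and 222 CPM in senescent and 119, 146 and 151 CPM in healthy libraries (0.54 ± 0.15, adjusted p = 0.021). Scarb2 was not called without senescent replicate 2 (0.059) or 3 (0.069), nor without healthy replicate 1 (0.056) or 2 (0.050), with changes of 0.44 to 0.57.

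Cd63, a tetraspanin gene of late endosomes and secreted vesicles, was the least abundant of the 43 per kilobase. It had 2.12, 1.92 and 2.20 CPM in senescent and 0.505, 0.856 and 0.354 CPM in healthy libraries, a rise of 1.87 ± 0.35 (adjusted p = 0.0037). These levels rest on 66 to 76 counts in senescent and 10 to 22 counts in healthy libraries. Cd68, a glycoprotein gene best known as a macrophage marker, had 7.14, 5.16 and 9.06 CPM in senescent and 4.48, 3.27 and 2.09 CPM in healthy libraries (1.12 ± 0.31, adjusted p = 0.020). Its level was 1.602% to 1.82% of the macrophage sum in senescent and 1.10% to 1.85% in healthy libraries, shares that overlap. Cd68 was not called without senescent replicate 3 (0.95, adjusted p = 0.070) or healthy replicate 2 (1.11, adjusted p = 0.059). Cd63 made up 0.389% to 0.678% of the macrophage sum in senescent and 0.200% to 0.314% in healthy libraries, shares that do not overlap. Mcoln1, the gene of the calcium channel TRPML1, was not called (0.10 ± 0.10, adjusted p = 0.46; called higher with total library size, 0.41, adjusted p = 0.011).

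Of the proton pump genes 1 of 4 rose (25.0%, against 20.4% of all genes tested). Atp6v1a (chromosome 16, 44085402 to 44139705) encodes the catalytic A subunit of the pump's cytosolic V1 sector and had 65.0, 74.7 and 79.3 CPM in senescent and 36.1, 35.8 and 44.9 CPM in healthy libraries (0.91 ± 0.14, adjusted p = 0.0013). Its neighbour in V1, the regulatory H subunit gene Atp6v1h, had 47.0, 51.0 and 50.0 CPM in senescent and 51.0, 94.2 and 73.1 CPM in healthy libraries (-0.56 ± 0.20, adjusted p = 0.054). Atp6v1h was called lower without healthy replicate 1 (-0.77, adjusted p = 0.0045), with DESeq2 (-0.57, adjusted p = 0.029) and with no filter (-0.56, adjusted p = 0.040). The d1 subunit gene of the membrane sector, Atp6v0d1 (-0.12 ± 0.11, adjusted p = 0.41), and the accessory gene Atp6ap1 (0.19 ± 0.10, adjusted p = 0.16) were not called, though Atp6ap1 was with total library size (0.50, adjusted p = 0.0046).

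Another 15 pump genes could be tested, of 18 listed, and 5 of them rose and 3 fell. These are 33.3% and 20.0%, against 20.4% and 20.7% of all genes tested. Besides Atp6v1a, rises in V1 were those of Atp6v1d, the gene of the central stalk (37.9 ± 2.18 CPM in senescent and 25.1 ± 2.52 CPM in healthy libraries, adjusted p = 0.0045), Atp6v1c1 (38.05 ± 0.634 and 25.8 ± 2.97 CPM, adjusted p = 0.0058) and Atp6v1e1 (0.34 ± 0.11, adjusted p = 0.038). Falls in V1 were those of Atp6v1g1 (40.9 ± 2.10 CPM in senescent and 68.1 ± 14.5 CPM in healthy libraries, adjusted p = 0.0068, or 0.051 with total library size) and Atp6v1f (28.9 ± 1.95 and 39.05 ± 4.93 CPM, adjusted p = 0.024). In the membrane sector Atp6v0e2, a subunit gene near its detection limit, had 0.865, 1.57 and 1.36 CPM in senescent and 0.135, 0.0778 and 0.318 CPM in healthy libraries (adjusted p = 0.0031). Tcirg1, an a-subunit gene known from osteoclasts, averaged 88.7 ± 3.94 CPM in senescent and 46.6 ± 15.01 CPM in healthy libraries (adjusted p = 0.0096). Atp6v0d2, an osteoclast and macrophage d subunit, had 2.29, 4.26 and 5.36 CPM in senescent and 7.01, 7.005 and 23.3 CPM in healthy libraries (-1.65, adjusted p = 0.031). Atp6v0d2 lost its call without healthy replicate 3 (-0.83, adjusted p = 0.075), without any single senescent replicate (-1.90 to -1.35, adjusted p = 0.060 to 0.090), with limma-voom (0.054) and with total library size (0.057). Atp6v1f was not called with total library size (-0.12, adjusted p = 0.44), nor without senescent replicate 2 (0.10) or 3 (0.13) or healthy replicate 2 (0.080), where its change was -0.38 to -0.35. Atp6v1e1 was not called without senescent replicate 2 (0.12) or 3 (0.074), nor without healthy replicate 1 (0.095) or 2 (0.086), with changes of 0.29 to 0.39.

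Tfeb (ENSMUSG00000023990; chromosome 17, 47737030 to 47792419), the gene of the transcription factor known as a master switch of lysosomal genes, had 5.52, 4.28 and 6.31 CPM in senescent and 8.29, 7.47 and 6.43 CPM in healthy libraries. The groups did not overlap, but the change of -0.46 ± 0.19 was not called (95% interval -0.89 to -0.03, adjusted p = 0.082). Its relative Tfe3 rose slightly, with 32.8 ± 2.50 CPM in senescent and 25.5 ± 1.91 CPM in healthy libraries (SD, n = 3 each; 0.36 ± 0.11, adjusted p = 0.030). Tfe3 was not called without senescent replicate 1 (0.062) or 3 (0.10), nor without healthy replicate 1 (0.083) or 2 (0.059). Mitf and Tfec, the other relatives, were not called (adjusted p = 0.51 and 0.12), though Tfec was with total library size (1.29, adjusted p = 0.047). TFEB is held in the cytoplasm by the kinase mTORC1 and acts after moving to the nucleus, which transcript levels do not show.

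Of 21 tested genes of the TFEB family and of nutrient sensing at the lysosome, 1 rose and 4 fell. These are 4.76% and 19.05%, against 20.4% and 20.7% of all genes tested. Lamtor4 and Lamtor2, of the Ragulator complex that anchors mTORC1, averaged 25.6 ± 2.48 and 46.9 ± 4.47 CPM in senescent and 39.3 ± 6.66 and 66.9 ± 7.84 CPM in healthy libraries (adjusted p = 0.011 and 0.014). Ppargc1a, a coactivator gene of mitochondrial biogenesis known as a TFEB target, had 1.73, 6.09 and 2.14 CPM in senescent and 10.1, 13.5 and 9.65 CPM in healthy libraries (adjusted p = 0.013). Without senescent replicate 3 Lamtor4 (adjusted p = 0.064), Lamtor2 (0.082) and Ppargc1a (0.056) were not called, nor was Lamtor2 without senescent replicate 2 (0.054). With total library size Lamtor4 (0.10) and Lamtor2 (0.21) were not called.

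Beyond the 43 genes, 116 of 128 other lysosomal genes could be tested. In all 22 rose and 25 fell, or 40.5% called, close to the 41.1% of all genes, and their median was 0.07. The hydrolases and cofactors among them gave 5 rises and 10 falls of 30 (16.7% and 33.3%, against 20.4% and 20.7% of all genes tested). Aga, the gene of aspartylglucosaminidase, which cuts the link between sugar and asparagine in glycoproteins, had 88.6, 94.8 and 90.8 CPM in senescent and 17.1, 16.3 and 14.6 CPM in healthy libraries. The rise of Aga, 5.71-fold (2.51 ± 0.11, adjusted p = 2.3e-06), exceeds that of Tpp1. Prcp, a carboxypeptidase gene, rose by 1.20 ± 0.16 (adjusted p = 0.00077). Scpep1, a serine carboxypeptidase gene of the same family as Ctsa, fell by 1.35 on the log2 scale (SE 0.14, adjusted p = 0.00017), with 28.4 ± 2.21 CPM in senescent and 72.6 ± 10.7 CPM in healthy libraries.

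Membrane proteins and carriers gave 7 rises and 5 falls of 27 (25.9% and 18.5%, against 20.4% and 20.7% of all genes tested). Slc36a1, the proton-coupled amino acid exporter gene, had 95.2, 91.5 and 102 CPM in senescent and 32.5, 27.7 and 28.3 CPM in healthy libraries (1.71 ± 0.12, adjusted p = 2.2e-05). Slc29a3, a nucleoside transporter gene, averaged 14.4 ± 1.57 CPM in senescent and 3.37 ± 0.297 CPM in healthy libraries (2.09 ± 0.15, adjusted p = 2.8e-05), and Mfsd1 rose by 0.84 ± 0.11 (adjusted p = 0.00058). The two-pore channel gene Tpcn1 averaged 37.5 ± 1.77 CPM in senescent and 74.8 ± 11.9 CPM in healthy libraries (-1.0 ± 0.14, adjusted p = 0.00090). Tmem106b (-1.10 ± 0.16, adjusted p = 0.0012) and the sialic acid exporter gene Slc17a5 (-0.77 ± 0.14, adjusted p = 0.0038) fell as well.

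Of 23 genes that sort cargo to lysosomes or move them, 4 rose and 3 fell. That is 30.4% called, below the 41.1% of all genes tested. Arl8a, a small GTPase gene that couples lysosomes to kinesin, had 90.7, 79.6 and 98.3 CPM in senescent and 10.5, 13.4 and 11.6 CPM in healthy libraries, a rise of 7.58-fold (2.92 ± 0.14, adjusted p = 3.5e-06). Its paralog Arl8b was not called (-0.22 ± 0.13, adjusted p = 0.20). The large mannose 6-phosphate receptor gene Igf2r, which delivers tagged hydrolases, had 109, 128 and 139 CPM in senescent and 28.5, 35.1 and 35.3 CPM in healthy libraries (1.93 ± 0.14, adjusted p = 3.1e-05). The antisense gene Airn overlaps Igf2r, and without a stated strand setting their reads cannot be told apart. The small receptor gene M6pr averaged 82.2 ± 1.84 CPM in senescent and 100.7 ± 6.06 CPM in healthy libraries (-0.29 ± 0.10, adjusted p = 0.049, or 0.02 with adjusted p = 0.90 by total library size). M6pr was not called when any single library other than healthy replicate 1 was left out (0.088 to 0.19). Vps41, of the tethering complex for fusion with lysosomes, rose (0.87 ± 0.12, adjusted p = 0.00085), and Nagpa, the gene of the enzyme that uncovers the mannose 6-phosphate tag, fell (-0.56 ± 0.11, adjusted p = 0.0049; not called with total library size, adjusted p = 0.12). Plekhm1, an adaptor gene for fusion, fell (-0.54 ± 0.16, adjusted p = 0.024), and was not called with total library size (-0.23, adjusted p = 0.27), nor without senescent replicate 2 (0.11) or 3 (0.10) or healthy replicate 2 (0.074), where its change was -0.49 to -0.39.

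**Figure D4:**
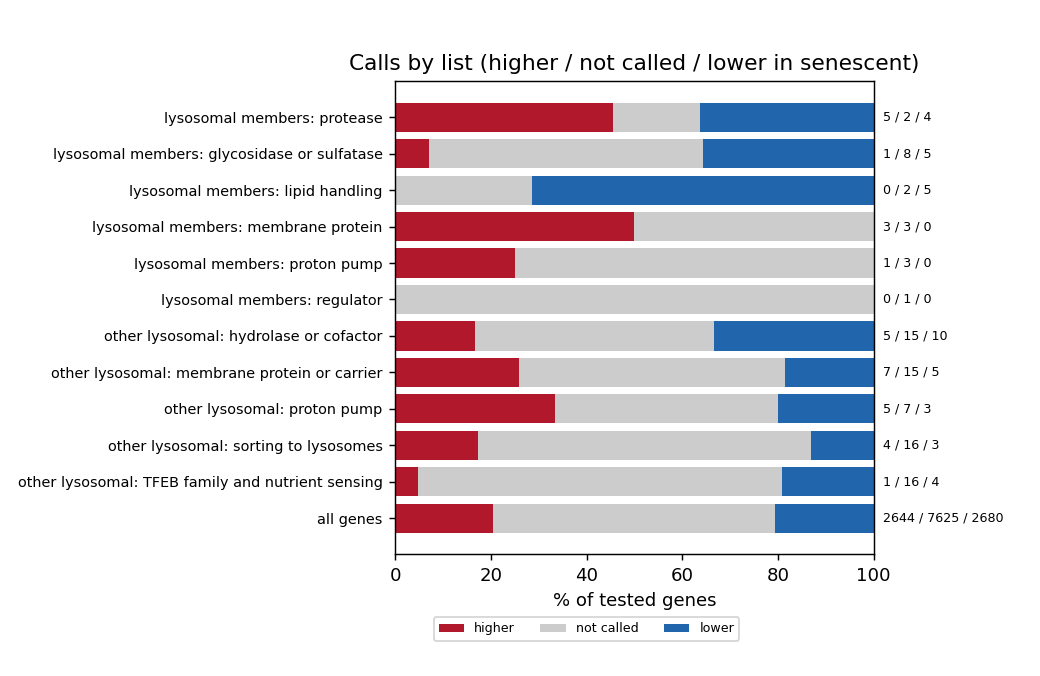
Share of tested genes called higher (red), not called (grey) and called lower (blue) in senescent cells, by list, with the counts at the right in that order. Of the 43 genes, the lipid genes have 5 of 7 in blue and the 6 membrane proteins none, and all 12949 genes split 2644, 7625 and 2680.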

How the data were processed

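Polyadenylated RNA of 6 hepatocyte samples, 3 senescent and 3 healthy by their titles, was sequenced by a directional kit from 500 ng of RNA with 10 PCR cycles, per the labels' protocols. The authors deposited whole-number read counts per Ensembl gene. The submitters' processing notes name FastQC, MultiQC 1.3, cutadapt 1.16, STAR 2.7.1a, featureCounts, DESeq2 1.34.0 and GRCm38. The sources used here give neither annotation release nor strand setting, and reads shared with overlapping or antisense genes are therefore uncertain. In GENCODE M21, 14 of the 43 genes have such overlaps, over 0.694% to 34.4% of their exonic bases. The genes that overlap Ctsd, Arsb, Ctsl and Arsa are absent from the count table. Of those present in it, Card14 covers the largest share, 21.6% of Sgsh. A column whose code differs in 1 letter from the label of healthy replicate 2 was taken as that sample. Columns of no sample were 0.

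Counts were tested with edgeR 4.0.16 (R 4.3.3) after filterByExpr (minimum count 10, total 15) and TMM scaling, with the two-sided quasi-likelihood F test over 12949 genes with Benjamini-Hochberg adjustment and no covariate. SE is the log2 fold change over the square root of F, and 95% intervals are built from it. Exact permutation of 3 against 3 libraries cannot go below p = 0.1 and was not used. Counting precision is limited by depth only for the least abundant genes: 3 counts in a library equal 0.0837 to 0.117 CPM. Replicate libraries differed beyond sampling noise in every pair (chi-square over its degrees of freedom of 46.4 or more). Symbols, coordinates and exonic lengths came from GENCODE M21 on GRCm38, and promoter windows from RefSeq. The tests were tried on simulated counts. In these few genes were changed, up and down in equal number, so they do not bear on the choice of scaling.

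The 43 genes, the other lists and the tests were chosen with earlier results of these data known. Named first were Glb1, Lamp1, Lamp2, Ctsb, Ctsd, Ctsl, Cd63, Cd68 and Tfeb, then per role up to 4 called genes a direction by smallest p, and per other list up to 3. Atp6v1e1, Tcirg1, Arl8b, Mitf and Tfec, each a relative or partner of a named gene, were added after their values were seen. Some genes that the rule selects are not reported here. Alternatives were DESeq2 1.42.0, limma-voom (limma 3.58.1), other scalings, filters and threshold, a replicate block and each library left out.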

Additional observations from a re-analysis of the deposited data

How the results depend on the processing

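With total library size 16 of the 43 genes rose and 7 fell (median 0.13), 56 and 10 of the other lysosomal genes, 19 macrophage markers rose, and over all genes 4861 rose and 1285 fell. On that scale Man2b1 turned to 0.31 and M6pr to 0.018. At an adjusted p under 0.01 there were 6 rises and 8 falls of the 43 genes, 12 falls of the other lysosomal genes, 1 macrophage rise, and 1570 rises and 1498 falls of all genes. DESeq2 and no filter each gave 13 macrophage rises. With single libraries left out, the 43 genes gave 6 to 9 rises and 9 to 15 falls (median -0.159 to -0.090), the other lysosomal genes 19 to 28 and 12 to 26, macrophage markers 2 to 14 rises, and all genes 1836 to 2691 rises and 1489 to 2789 falls. Same-numbered libraries did not deviate together, with correlations of 0.23, -0.17 and -0.04 for replicates 1, 2 and 3. Senescent replicate 2 correlated best with healthy replicate 3 (0.38). With 3 libraries per group such correlations cannot decide whether libraries were paired, and the main test assumed no pairing. With a replicate block 8 of the 43 genes rose and 16 fell: Glb1 (adjusted p = 0.046) and Atp6v1h (0.040) were called lower and Ctss (0.064) and Lgmn (0.059) were not called. No sign changed among the 24 called genes, and the cause of these shifts was not tested. Cd63, with 10 to 22 counts per healthy library, is the most limited by depth, followed by Cd68 with 59 to 133.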

Other observations

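Neuronal ceroid lipofuscinoses are storage diseases of the nervous system in which lipofuscin-like pigment fills lysosomes. Genes mutated in them were listed after the rises of Tpp1, Ctsd, Ctsf and Mfsd8 had been seen, so their count is a description. Of 12 such genes 5 rose, 1 fell and 6 were not called, while 20.4% of all genes tested rose and 20.7% fell. Besides Tpp1, Ctsd and Ctsf, described above, Mfsd8, a lysosomal membrane protein gene, had 16.9, 16.3 and 15.4 CPM in senescent and 8.66, 8.02 and 9.55 CPM in healthy libraries (0.89 ± 0.12, edgeR adjusted p = 0.00090). Atp13a2, a polyamine exporter gene of lysosomes, had 37.2, 36.4 and 41.0 CPM in senescent and 19.7, 23.8 and 14.7 CPM in healthy libraries (0.98 ± 0.17, adjusted p = 0.0027). The gene that fell was Grn, which encodes progranulin, with 181, 173 and 144 CPM in senescent and 276, 277 and 216 CPM in healthy libraries (-0.63 ± 0.15, adjusted p = 0.010). Ppt1, Cln3, Dnajc5, Cln6, Cln8 and Kctd7 were not called, with changes of -0.21 to 0.45.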
